A study of Mus musculus with 2 samples.

Results

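Aminoacyl-tRNA synthetases are the enzymes that join each amino acid to its transfer RNA, and their genes were taken here by name. A member was a gene whose listed name is the letter of an amino acid other than E or P, or "Ep", followed by "ars", with or without a closing 1, 2, a or b. In the direct RNA libraries of day 6 mouse retinal organoids 32 of 8262 named genes met that rule, 19 of them coding for cytosolic enzymes and 13, with names ending in 2, for mitochondrial ones. The rule misses Eprs, which joins glutamate and proline, as well as Ears2 and Pars2, and these genes are given apart. Of the RefSeq symbols that meet the rule, Mars2 and Wars2 were listed in neither library.

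The samples were 2 libraries of 1 group, wild-type organoids of the mouse stem cell line Rx:GFP, in which a fluorescent protein reports Rx; its gene, Rax, helps to set up the eye field. Both had been grown for 6 days in GMEM medium with KSR and with AGN at 0.1 µM, carry the same batch label, and were each read for about 48 h from a sample of 1 µg poly(A) RNA. Whether they came from separate cultures is not stated, so the spread between them may be technical. The organoids are a mixture of cells from 1 reporter line, and a low depth can mean fewer cells of a kind or less RNA per cell, which cannot be told apart in bulk RNA.

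A synthetase activates its amino acid with ATP and then transfers it to the transfer RNA, and several of the enzymes proofread the product. The cytosol and the mitochondrion are mostly served by separate nuclear genes, while Gars and Kars each supply both compartments. In animal cells some cytosolic enzymes assemble with scaffold proteins into the multisynthetase complex. N6-methyladenosine (m6A) is a methyl mark on adenosines of messenger RNA, placed mainly by the METTL3 complex within a short sequence context, and it influences the stability and translation of the RNA. In direct RNA sequencing the native strand is read in the pore, and the mark is inferred from its current.

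The deposited tables list positions on transcripts, each with a fraction modified, which runs from 0 to 1, and a coverage, which is the number of reads over the position. The positions lie on 4 motifs, shown here because the fraction differs between them. They are written in DNA letters as deposited, with the central adenosine of the m6A context being the third letter.

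AGACT: 19 synthetase sites.
GGACA: 46 synthetase sites.
GGACC: 29 synthetase sites.
GGACT: 17 synthetase sites.

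Summed over listed positions, coverage was 718245 in replicate 1 and 1598662 in replicate 2. Of the eye-field and retinal progenitor markers, 10 of 11 were listed in each library, and Lhx2 reached 111 and 261 reads. None of 5 pluripotency markers and none of 4 endoderm markers was listed. Of the neuronal markers only Tubb3 was listed, with up to 17 reads, and Kdr was the only one of 4 mesoderm markers, with up to 13. Pmel, Mitf and Dct of the pigment epithelium were listed with up to 14 reads, whereas Tyr and Tyrp1 were not listed. Absence from the tables does not separate low expression from RNA without a listed position, and the part of other cell types in the results was not tested.

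A site was a position with at least 20 reads in replicate 2, with the value of replicate 1 where it was listed. The synthetase genes held 258 listed positions on 45 transcripts, of which 111 were sites, in 22 genes. Of the 31 members listed in replicate 2, 22 had a site (71.0%), against 48.6% of all listed genes. By compartment, 17 cytosolic genes held 91 sites and 5 mitochondrial genes held 20. Cars, the cysteine enzyme, had no site, with up to 16 reads, and Dars, the aspartate enzyme, was listed in replicate 1 alone. Aars2, Cars2, Fars2, Hars2, Lars2, Sars2, Tars2 and Vars2 were listed below 20 reads.

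Replicate 1 listed 73 of the 111 sites, and 38 (34.2%) were not listed there, against 25.2% of all sites. Of the 73 sites, 47 had 20 or more reads in each library, all of them cytosolic. Coverage in replicate 2 was a median of 2.25 times that in replicate 1 at the 73 sites. Over the 111 sites the median fraction in replicate 2 was 0.387 (interquartile range 0.144 to 0.740), and over all 16212 sites it was 0.345 (0.150 to 0.673). At the sites listed in both libraries the synthetase median was 0.5 in replicate 1 and 0.395 in replicate 2, a mean of 0.447 ± 0.0745 (SD, n = 2). For all 12121 such sites it was 0.366 ± 0.0127 (SD, n = 2). The synthetase values straddle a wide range, and their median, taken over far fewer sites, moved more between the libraries than that of all sites. Site by site the libraries did not differ more, with a median absolute difference of 0.0591 at the 73 sites and 0.075 at all 12121. Coverage at the 111 synthetase sites had a median of 39 reads in replicate 2, against 36 for all sites.

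**Figure D1:**
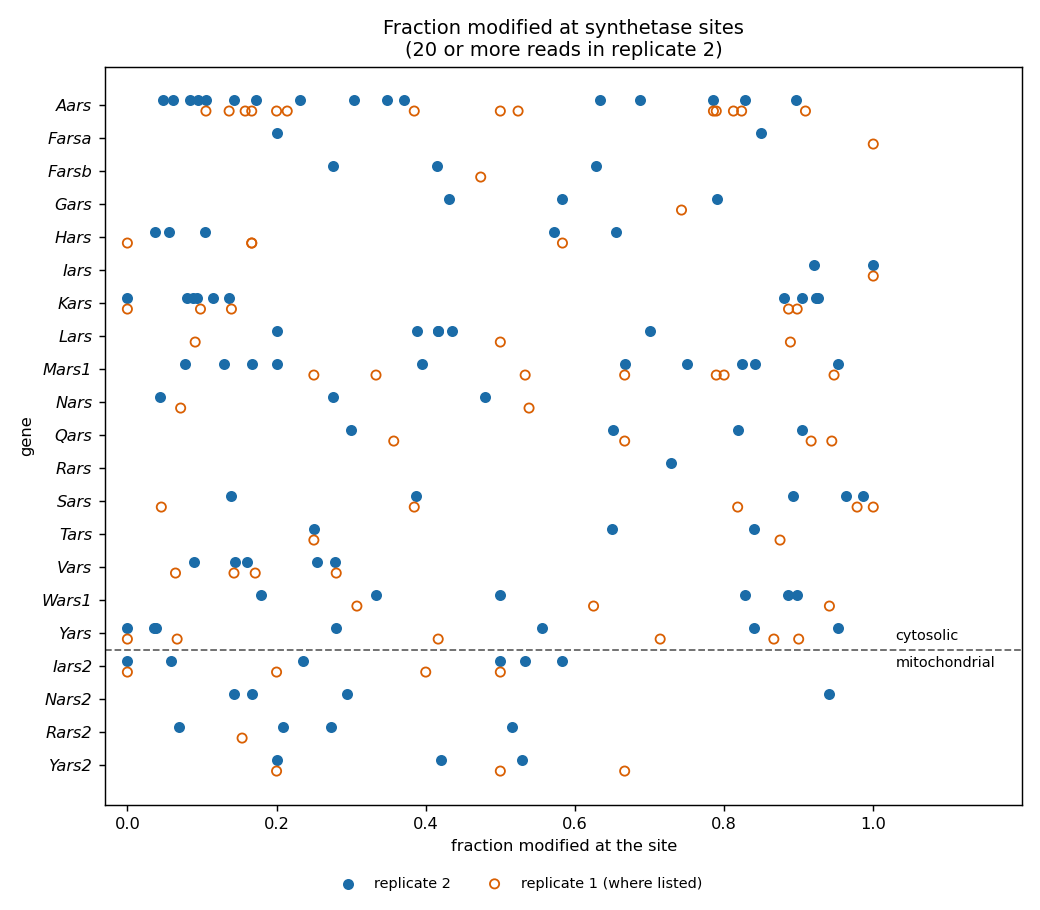
Fraction modified (horizontal axis, no unit) at each site of the synthetase genes with a site that are reported by name, 1 row per gene, for replicate 2 (filled points) and replicate 1 where listed (open points). The dashed line divides cytosolic from mitochondrial genes. The sites of Kars lie at both ends of the axis, while those of Vars all lie below 0.3.

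By motif, GGACA made up 41.4% of the synthetase sites (95% Wilson interval 32.7% to 50.7%, counting error only), against 35.6% of all sites, and 45% without 11 Aars positions that are shared with another gene. GGACT made up 15.3% (9.79% to 23.2%), against 24.2%. The median fraction at the 34 GGACA sites listed in both libraries was 0.766 in replicate 1 and 0.745 in replicate 2. At the other motifs it ran from 0.171 ± 0.0404 at GGACT to 0.265 ± 0.0212 at GGACC (each SD, n = 2). This order rests on the shared Aars positions, since without them the means were 0.311 at GGACT, 0.199 at GGACC and 0.198 at AGACT, and 0.790 at GGACA. All sites of the series had 0.695 ± 0.0229 at GGACA (SD, n = 2). After each fraction was set against the median of its motif over all sites of the same library, the synthetase median was -0.04 in replicate 1 and 0.01 in replicate 2, so their side of the all-site median was not the same in both libraries.

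Among the 47 sites with 20 or more reads in each library, 13 (27.7%) had a fraction of 0.8 or more in both, against 17.1% of all such sites. These 13 lay in Kars, Mars1, Qars, Sars, Tars, Wars1, Yars and Aars. GGACA was the motif of 11 of them (84.6%), close to the 78.8% of all 893 sites with such fractions. The site in Aars is also listed under a neighbouring gene, as described further on, and 12 of 36 remain without the positions shared with that gene. A fraction of 0.2 or less in both was found at 10 (21.3%), against 26.3% of all such sites, and at 7 of 36 without the shared positions. Both extremes occurred within the same transcript in Kars, Sars, Yars and Aars.

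Leaving out Eprs, which the name rule misses and which is described with the partners, the enzymes of the multisynthetase complex held 33 sites in 6 genes. GGACA made up 20 of these sites, some of them the same place on several transcripts. Their median fraction at the 20 sites listed in both libraries was 0.667 in replicate 1 and 0.659 in replicate 2. The other cytosolic enzymes had medians of 0.417 and 0.333 at 43 such sites, or 0.401 and 0.360 at 32 without the shared Aars positions. Relative to the medians of the motifs, the complex stood at 0.04 and 0.08 and the other cytosolic enzymes at 0.03 and 0.025. The 2 sets were thus closer once the motif was taken into account.

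Gene coordinates below are the deposited ones, whose build is not settled. Mars1 charges the initiator and the elongator methionine transfer RNA. Its gene lies on chromosome 10, 127132090 to 127147655, and 10 sites, 8 of them GGACA, were found on transcript ENSMUST00000037290.11. Coverage was 34 to 51 reads in replicate 2 and 17 to 22 in replicate 1. At position 2070 replicate 1 gave 0.947 over 21 reads and replicate 2 gave 0.952 over 49, the highest of the gene. Position 2074, the lowest, had 0.25 and 0.0769 over the same numbers of reads. The deepest site, position 2365, had 0.789 and 0.842 over 22 and 51 reads. The mean over the 7 sites listed in both libraries was 0.591 ± 0.0368 (SD, n = 2).

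Positions 2070 and 2074 of Mars1 are 4 nt apart, so their motifs share 1 letter and the stretch can be read from the deposited motifs. It is shown because the adenosines at the centre of each motif, here in capitals, had opposite values.

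Mars1 2070 to 2074: ggAcagAct

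The second minus the first came to -0.70 and -0.88 in replicates 1 and 2, beyond the difference between the libraries at either position. The same stretch was listed with 20 or more reads in each library in 7 genes, Mars1 included, and the first adenosine was the higher in both libraries in all 7. The motifs alone have this order, with medians of 0.695 at GGACA and 0.25 at AGACT over all sites listed in both libraries. Its fraction was at least 0.9355 in each, while that of the second ran from 0.0312 to 0.905. In Armc10 the values were 0.958 and 0.956 at the first and 0.905 and 0.887 at the second. How the caller treats overlapping motifs is not stated, and its part in these values was not tested.

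Kars, the lysine enzyme, was the deepest member. It lies on chromosome 8, 112720075 to 112737955, and 10 sites were listed on 3 transcripts. Kars makes its cytosolic and mitochondrial forms by alternative splicing. On the main transcript, ENSMUST00000034426.13, the highest and deepest site, position 1780, had 0.898 in replicate 1 and 0.923 in replicate 2, over 60 and 131 reads. At position 355 it was 0.886 over 51 and 0.905 over 116 reads. The 2 GGACC sites of this transcript lay at the other end of the scale. Position 406 had 0.140 and 0.0882 over 52 and 118 reads, and position 1365 had 0.0980 and 0.0932 over 57 and 126 reads. The libraries differed by at most 0.0513 at these 4 sites, far less than the gap between the high and the low pair.

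The other 2 transcripts of Kars list several of these motifs at a constant distance, 123 and 181 nt further on. The high GGACA site at position 1780 had 0.926 over 35 reads on the second transcript and 0.880 over 28 on the third in replicate 2. The low GGACC site at position 1365 had 0 over 31 reads and 0.136 over 23, and replicate 1 listed 0 over 11 reads on the second transcript, the lowest mean of the gene. How reads were divided among transcripts is not stated.

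Across the synthetases, 40 such pairs of matching positions on 2 transcripts of a gene were found in replicate 2, in 7 genes. Their fractions differed by a median of 0.0673, and by more than 0.2 at 2 pairs. The larger of these was in Iars, with 0 over 12 reads against 0.333 over 9 reads. Some places of Kars and Wars1 enter as several pairs. The same was not counted over all genes, so these differences cannot be called particular to the synthetases. Sites of Kars and Iars on several transcripts are therefore not separate positions, and with 1 transcript per gene the synthetases held 105 sites.

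Qars charges glutamine (chromosome 9, 108384905 to 108393140) and had 4 sites, all GGACA, on transcript ENSMUST00000006838.15. The fraction was 0.357 and 0.3 at position 1215, 0.944 and 0.818 at position 1508, 0.667 and 0.651 at position 1667, and 0.917 and 0.905 at position 2144, in replicates 1 and 2. Coverage was 20 to 21 and 63 to 69 reads. The order of the lowest and the next site was the same in both libraries, whereas positions 1508 and 2144 changed places.

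Iars, the isoleucine enzyme, was listed at 22 positions in replicate 2, yet only 1 place reached 20 reads, on both of its transcripts. There, at positions 3685 and 3715, the fraction was 1 over 20 reads and 0.92 over 28, and replicate 1 listed 1 over 9 reads for the former. Lars, the leucine enzyme, which also senses leucine for mTORC1 signalling, had 6 sites from 0.2 to 0.7 in replicate 2. Among its sites listed in both libraries, position 898 had the highest mean, with 0.889 over 12 reads and 0.7 over 31. Position 2105 had the lowest mean of these, with 0.0909 over 20 reads and 0.417 over 36. Its deepest, position 2524, had 0.435 over 39 reads in replicate 2 alone. Rars, the arginine enzyme, had a single site at position 1006, with 0.729 over 74 reads, and was not listed in replicate 1. Dars was the reverse, with 0.522 over 39 reads at position 708 of replicate 1 and no listing in the deeper library.

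Outside the complex, the serine enzyme Sars (chromosome 3, 108332181 to 108352525; transcript ENSMUST00000090553.11) had the highest mean among the genes with 5 or more sites. Its position 1320 had 1 and 0.987 in replicates 1 and 2, over 45 and 80 reads. Position 1733 followed with 0.978 over 52 and 0.963 over 86 reads, the deepest of the gene together with position 1659, which had 0.818 over 51 and 0.892 over 86 reads. All 3 are GGACA. Near the start of the transcript, position 168 was the lowest, with 0.0455 over 27 and 0.140 over 55 reads. The mean of its 5 sites was 0.660 ± 0.0201 (SD, n = 2).

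Vars, the valine enzyme (chromosome 17, 35219963 to 35235298; transcript ENSMUST00000087315.13), was low at every site. Its 4 sites listed in both libraries had a mean of 0.166 ± 0.00239 (SD, n = 2). The highest, position 2725, had 0.280 over 41 and 0.278 over 78 reads. The lowest was also the deepest, position 3511, with 0.0645 over 46 and 0.0896 over 90 reads. This is a GGACA, the motif with the highest median. A fraction of 0.2 or less in both libraries was found at 2 of 21 synthetase GGACA sites with 20 or more reads in each (9.52%), against 9.05% of all such sites. A position listed in replicate 1 alone, 2519, had 0.619 over 39 reads.

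The other of these 2 GGACA sites was in Yars, the tyrosine enzyme (chromosome 4, 129083553 to 129113400; transcript ENSMUST00000106054.2). At position 2390, its deepest jointly with position 2436, the fraction was 0 over 24 reads and 0.0357 over 35. Upstream of it, position 2345, a GGACT, had 0.9 over 24 and 0.840 over 33 reads. The highest site was position 1507, with 0.867 over 19 and 0.952 over 30 reads. Yars had 7 sites and a mean of 0.472 ± 0.0309 over the 6 listed in both (SD, n = 2). A fraction of 0.8 or more at another motif than GGACA was found at 2 of 26 synthetase sites (7.69%), this one and position 5053 of Aars, against 5.87% of all such sites.

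Wars1, the tryptophan enzyme, had 6 sites on its main transcript, with coverage of 45 to 47 reads. Position 2110 had 0.941 over 25 and 0.886 over 46 reads, and position 455, the lowest listed in both, had 0.308 over 22 and 0.333 over 45. The deepest, positions 993 and 1082 with 47 reads, were listed in replicate 2 alone, at 0.829 and 0.897. The mean over the 3 sites listed in both was 0.599 ± 0.0365 (SD, n = 2). The histidine enzyme Hars had 5 sites, 4 listed in both libraries, with a mean of 0.221 ± 0.0116 (SD, n = 2). Its position 1322 had 0.583 over 15 and 0.655 over 37 reads. Position 912 had 0 over 13 and 0.0370 over 33 reads. The deepest were positions 1873, listed in replicate 2 alone with 0.571, and 1909, with 0.167 and 0.103, each over 42 reads in that library.

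Of the remaining cytosolic genes, Gars, the glycine enzyme, had 3 sites over 93 to 118 reads, and its position 1158 had 0.743 over 52 and 0.790 over 101 reads. Tars, the threonine enzyme, had 3, with 0.875 over 22 and 0.840 over 70 reads at position 2215. Nars, for asparagine, had 3 sites from 0.0435 to 0.480 in replicate 2. The phenylalanine enzyme is built from the products of Farsa and Farsb, which had 2 and 3 sites. Position 436 of Farsa had 1 over 12 and 0.850 over 26 reads, and position 1569 of Farsb 0.474 over 28 and 0.415 over 55.

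Aars, the alanine enzyme, had the most sites of any member, 16 on transcript ENSMUST00000034441.7, but 11 of them are also listed under another gene. Its interval (chromosome 8, 111759776 to 111784296) ends at the same base as that of Exosc6 (111782971 to 111784296), which codes for a subunit of the RNA exosome. All 11 positions listed for Exosc6 match Aars positions in motif at 1 constant distance of 4424 nt, and the next most frequent distance matched 1. These are the Aars positions 4829 to 5638. In the RefSeq gene list Exosc6 is the next gene after Aars and does not overlap it.

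Coverage on Aars rose from 42 reads at position 1859 to 69 at position 3401 in replicate 2, and was 36 to 39 reads over the shared stretch. The Exosc6 transcript had 25 to 29 reads at the same places. In replicate 1 the shared stretch had 21 to 24 reads on Aars and 8 to 10 on Exosc6. Whether a read could count for both genes is not stated, so to which gene the marks of these 11 sites belong cannot be told apart.

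The fractions under both gene names differed in replicate 2 by a median of 0.140 and by at most 0.248. At position 5053, the highest of the stretch by mean, Aars had 0.8125 and 0.897 over 21 and 36 reads in replicates 1 and 2, and Exosc6 0.667 over 28 reads in replicate 2. At position 5638, the lowest of the Aars transcript by mean over the libraries, the values were 0.136 and 0.0833 on Aars and 0 and 0.0769 on Exosc6. The names also parted at some places. At position 5422 Aars had 0.348 and Exosc6 0.1 in replicate 2, and at position 5569 Aars had 0.786 in both libraries while Exosc6 had 0.333 over 10 reads and 0.75 over 29.

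Upstream of the stretch 5 Aars sites remained, 3 of them listed in replicate 1. Position 1973, the highest of the transcript by mean, had 0.909 over 15 and 0.828 over 49 reads. Position 1859, the lowest of the 3 by mean, had 0.167 over 13 and 0.0606 over 42 reads. Position 3401, the deepest, had 0.158 over 26 and 0.231 over 69 reads, and it was the only one of the 5 with 20 or more reads in each library. The mean over Aars was 0.422 ± 0.0603 (SD, n = 2) over 14 sites with the stretch and 0.392 over the 3 upstream sites. No other member that overlaps the interval of a listed gene (Cars2, Fars2, Hars, Hars2 and Iars2) had more than 1 position matched in this way.

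**Figure D2:**
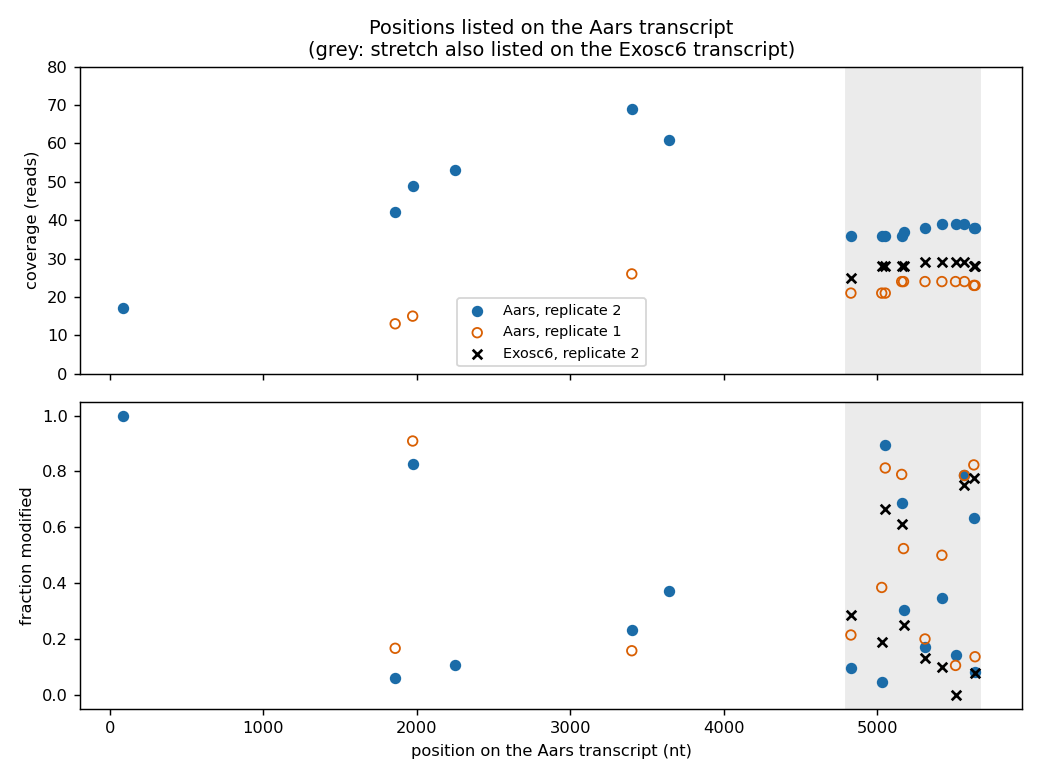
Coverage in reads (upper panel) and fraction modified (lower panel) against the position on the Aars transcript in nt, for replicate 2 (filled), replicate 1 (open) and, placed by the constant distance, Exosc6 in replicate 2 (crosses). The grey stretch holds the 11 shared positions. Coverage on Aars falls from 61 reads at position 3644 to 36 to 39 reads in the stretch, and the crosses lie at 25 to 29 reads.

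Elsewhere coverage grew towards the end of the transcript. Among 20 transcripts with 3 or more sites, the last site was deeper than the first in 19, and Aars was the exception. The ratio of last to first had a median of 1.22 over all 20. In Vars coverage went from 29 reads at position 267 to 90 at position 3511.

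The mitochondrial enzymes are imported after translation in the cytosol and charge the transfer RNAs encoded by the mitochondrial genome. Their 5 genes with a site had 20 to 46 reads in replicate 2 and 7 to 16 reads at the 10 sites that replicate 1 listed. None of their sites reached 20 reads in both libraries, so each fraction rests on few reads.

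Iars2 (chromosome 1, 185016923 to 185061593) had 6 sites. Its highest, position 1987, had 0.5 over 8 and 0.583 over 23 reads. Its lowest by mean, position 1645, had 0 over 7 and 0.235 over 22 reads. Position 1894, at 23 reads among the deepest, was listed in replicate 2 alone with 0.533. Rars2, whose loss of function causes a cerebellar disorder in humans, was the deepest mitochondrial gene (chromosome 4, 34614957 to 34660167), with 4 sites. Position 990 was the only one of them listed in both, with 0.154 over 16 and 0.208 over 36 reads. Position 1691, at 46 reads, had 0.516 in replicate 2.

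Nars2 had 4 sites in replicate 2 and was not listed in replicate 1. Position 1915 had 0.941 and position 1956 had 0.143, each over 21 reads. Yars2 had 3 sites. By mean, position 1069 was its highest, with 0.5 over 10 and 0.529 over 23 reads, and position 1366 its lowest, with 0.2 over 10 and 0.421 over 25. Position 1345 went from 0.667 over 10 to 0.2 over 25 reads, the largest difference between the libraries at any synthetase site.

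The mitochondrial genes were read less deeply than the cytosolic gene for the same amino acid. In replicate 2 the cytosolic gene had the higher maximum coverage in 13 of 13 pairs, over 12 amino acids, by a median of 3.83 times. The ratio ran from 1.22 for Iars and Iars2 (28 and 23 reads) to 10 for Vars and Vars2 (90 and 9 reads). In replicate 1, 7 pairs were listed on both sides and 6 had the same order. Iars and Iars2 were the exception, with 10 and 14 reads. These are depths at single listed positions, and the reads of a gene may be divided over its transcripts.

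**Figure D3:**
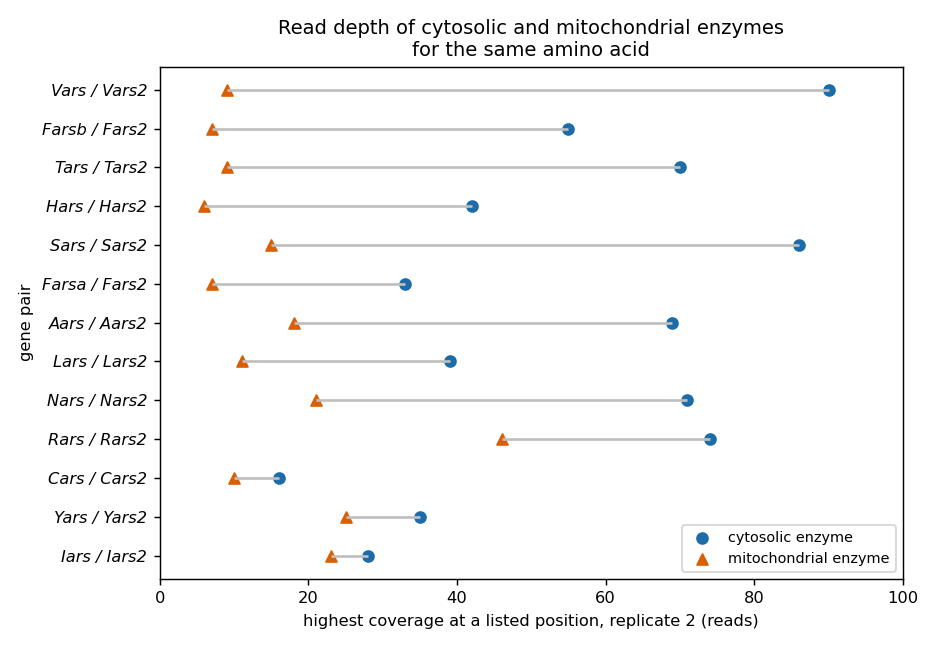
Highest coverage in reads at a listed position in replicate 2 for 13 pairs of a cytosolic (circles) and a mitochondrial (triangles) synthetase gene for the same amino acid, ordered by their ratio. Farsa and Farsb are both paired with Fars2. The circle lies to the right of the triangle in every pair, from 90 against 9 reads for Vars to 28 against 23 for Iars.

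The fraction modified was then compared between the compartments. Over all sites of replicate 2 the median was 0.395 for the cytosolic and 0.254 for the mitochondrial genes. At the sites listed in both libraries the cytosolic medians were 0.5 and 0.395 in replicates 1 and 2, and the mitochondrial ones 0.3 and 0.328. Cytosolic minus mitochondrial came to 0.2 and 0.0665, with a mean of 0.133 ± 0.0944 (SD, n = 2). Both libraries had the cytosolic median higher, but the difference varied between them by as much as its own size, and an exact paired permutation test over the 2 libraries (two-sided) gave p = 0.5, the smallest it can give. Without the 11 shared Aars sites the difference was 0.152 ± 0.0914 (SD, n = 2). The mitochondrial sites were all shallow. Among sites with 20 to 49 reads in replicate 2 the cytosolic median was 0.368 in that library, against 0.254. Where both libraries listed such a site, the cytosolic medians were 0.5 and 0.368 in replicates 1 and 2. The mitochondrial ones were 0.3 and 0.328, so the gap in replicate 2 was narrower there.

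Over all sites of replicate 2 the gap between the compartments was widest at GGACA. The 39 cytosolic GGACA sites had a median of 0.824 in replicate 2 and the 7 mitochondrial ones 0.5. Where both libraries listed the site, the medians were 0.809 and 0.821 over 30 cytosolic sites and 0.45 and 0.368 over 4 mitochondrial sites. At GGACT the mitochondrial median was the higher in replicate 2, at 0.167 over 5 sites against 0.123 over 12. Where both libraries listed the site, the mitochondrial GGACT medians were 0.529 and 0.639 over 2 sites and the cytosolic ones 0.167 and 0.103 over 9, so there the gap in replicate 2 was wider than at GGACA and ran the other way. With at most 7 mitochondrial sites per motif, these medians turn on single sites. Of 4 pairs for the same amino acid with sites on both sides, the median in replicate 2 was higher for the cytosolic gene in 3 (Rars, Nars and Iars). It was lower in Yars, at 0.280 against 0.421 in Yars2. The Rars median is a single GGACA site, and that of Iars is 1 GGACA place on 2 transcripts. GGACA made up 1 of 4 sites in Rars2 and 3 of 6 in Iars2, so these pairs differ in motif. Nars and Nars2 were close, at 0.275 and 0.230.

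The libraries differed by more than 0.2 at 7 of the 73 sites listed in both (9.59%), and at 8.06% without the shared Aars positions. Of all such sites 15.7% did. By compartment these were 4 of 63 cytosolic sites (6.35%) and 3 of 10 mitochondrial sites (30%), the latter over 7 to 16 reads in replicate 1. Of all sites in the series, 29.8% differed by that much where replicate 1 had 5 to 9 reads and 19.8% where it had 10 to 19. Replicate 2 was higher at 27, lower at 40 and equal at 6, and over all 12121 sites higher at 5415, lower at 6073 and equal at 633. With 20 or more reads in each, 4 of 47 sites differed by that much (8.51%), against 5.94% of all. Position 5030 of Aars had 0.385 over 21 and 0.0476 over 36 reads. At position 5172 it was 0.524 over 24 and 0.304 over 37. Both lie in the stretch shared with Exosc6. Position 2105 of Lars, given above, was one of the others. The last was position 1820 of Nars, with 0.0714 over 20 and 0.275 over 71 reads.

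**Figure D4:**
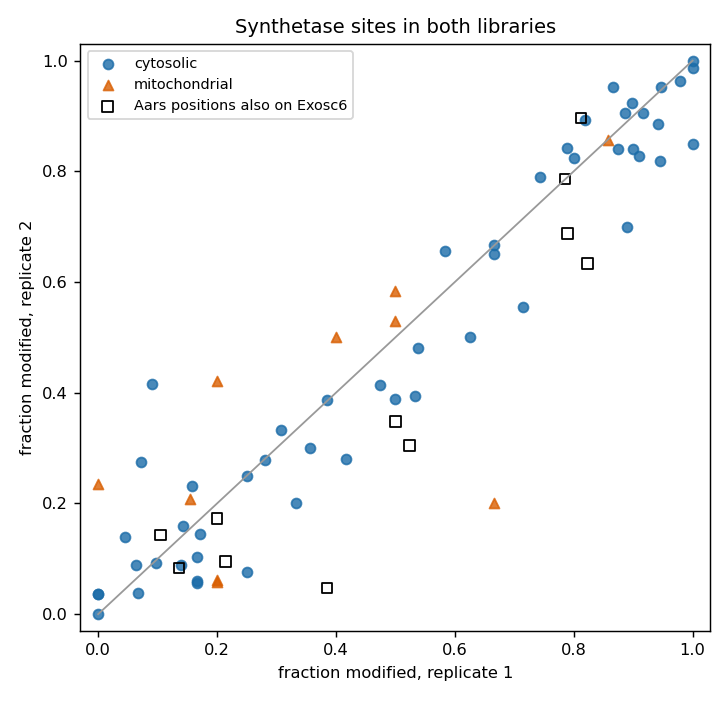
Fraction modified in replicate 1 (horizontal axis) and replicate 2 (vertical axis) at the 73 synthetase sites listed in both libraries, for cytosolic (circles) and mitochondrial (triangles) genes and for the 11 Aars positions shared with Exosc6 (squares). The line marks equal values. The triangle at 0.667 and 0.2 is position 1345 of Yars2.

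Neighbouring sites within 25 nt of each other on 1 transcript were listed in both libraries as 8 pairs. In 3 of them (37.5%) the fractions differed by more than 0.4 the same way in both libraries, against 29.8% of 607 such pairs in the whole series. One was the Mars1 pair shown above. Both others lie in the shared stretch of Aars. Positions 5630 and 5638, a GGACC and a GGACT 8 nt apart, had 0.824 and 0.136 in replicate 1 and 0.633 and 0.0833 in replicate 2. Positions 5030 and 5053 are both GGACC, and the second was higher by 0.43 in replicate 1 and by 0.85 in replicate 2.

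The partners of the synthetases were taken from lists of related genes, whose counts stand beside 48.6% of all listed genes with a site and a median fraction of 0.345 over all sites in replicate 2. Eprs (chromosome 1), a member of the multisynthetase complex, had 8 sites, with a mean over 5 sites of 0.636 in replicate 1 and 0.592 in replicate 2. Its position 2767 had 0.900 over 12 and 0.867 over 39 reads, and position 4698 had 0.944 over 24 and 0.837 over 72. Ears2 and Pars2, both mitochondrial, were listed in replicate 2 alone, with up to 8 and 5 reads. All 3 scaffold genes of the complex had a site. Aimp1 had 0.765 over 67 and 0.736 over 122 reads at position 858, and Aimp2 0.571 over 25 and 0.656 over 60 at position 1158. Eef1e1 had 6 sites, from 0.0286 to 0.879 in replicate 2.

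Of 16 genes of the amino acid response, through which uncharged transfer RNA raises the transcription of synthetase genes, 12 were listed in either library. Replicate 2 listed 11 of the genes, and 8 had a site. Their median fraction in replicate 2 was 0.179 over 21 sites. Atf4, the transcription factor of this response, had 1 site, position 836, with 1 over 17 and 0.926 over 62 reads. Asns, the asparagine synthetase, had 0.957 over 27 and 0.879 over 42 reads at position 1045 and 0.167 over 25 and 0.179 over 43 at position 1939. Ddit3, Trib3, Slc7a11 and Nupr1 were not listed. Elongation factor 1 takes the charged transfer RNA to the ribosome through its alpha subunit, Eef1a1. All 4 of its genes on the list had a site, with a median of 0.377 over 14 sites. Of 4 editing enzymes Aarsd1 had sites, with a median of 0.826 over 3. Xpot and Nsun2 of 4 transfer RNA export and methylation genes had 15, with a median of 0.310.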

How the data were processed

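Poly(A) RNA of 2 libraries was sequenced as native RNA on nanopores with the RNA002 chemistry, per the labels' protocols. Per the file headers, the deposited tables give a fraction modified and a coverage signal (reads) per transcript position. No listed position had fewer than 5 reads. The submitters' processing notes name mm10, but only 1 of 31 members matched by symbol had a start within 1000 bases of that in RefSeq GRCm38.p6, so the build of the coordinates is unsettled. The base caller, aligner, modification caller and the placement of positions in coding or untranslated sequence are not given in the sources used here. The denominator of the fraction is not given either, and 39.4% and 36.0% of values are whole multiples of 1 over the coverage (within rounding to 4 decimals), so no interval was set on a single fraction.

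Libraries were matched on transcript and position with Python 3.11.15 and pandas 2.3.3, and the code was tested on simulated data. Means carry the SD over 2 libraries. Sites are not replicates. Described in full are members with 5 or more sites and mitochondrial members with a site (1 of these, counted in the totals, and 1 marker are not reported here by name), with the highest and lowest site by mean where both libraries list it, and the deepest. Members, lists and tests were chosen with earlier results of these data known. The shared Aars stretch was found in the files. Depth at single positions limits precision. Alternatives were other coverage minimums, 1 transcript per gene, added genes, left-out genes or libraries, and values relative to the motif.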

Additional observations from a re-analysis of the deposited data

How the results depend on the processing

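The number of sites rests on the minimum: 219 without one beyond the deposited 5 reads, 35 with 50 reads in replicate 2 and 47 with 20 reads in both, against 111. The genes with a site were 11 and 13 under the latter settings, against 22. The share of sites at which the libraries differed by more than 0.2 fell from 9.59% to 4% with 50 reads. Relative to the motif medians the synthetase median turned from 0.447 to -0.0105, since that scale is centred on all sites. The compartment difference kept its sign under every alternative that gave a value. It could not be had with 50 reads or with 20 reads in both, where no mitochondrial site was left. Leaving out a library gave medians of 0.395 to 0.5 and differences of 0.0665 to 0.2. With n = 2 this says nothing about stability. Leaving out the shared Aars positions, chosen after seeing the data, kept each of these results within 1 SD, its interval or 1.5 times its count. Of 40 gene means under alternatives, 10 moved beyond 1 SD between libraries, by at most 0.244 (Lars with 20 reads in both, where 1 site is left).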

Other observations

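Of 56 synthetase positions with 20 or more reads in replicate 1, 9 (16.1%) were not listed in the deeper replicate 2, against 19% of all such positions. Besides those in Dars and Vars they include position 748 of Kars, with 0.122 over 53 reads, and positions 1373 and 1617 of Sars, with 0.182 over 45 and 0.486 over 49 reads. On both transcripts other positions had 55 or more reads in replicate 2. Conversely, position 756 of Gars had 93 reads in replicate 2 and position 1006 of Rars had 74, and neither was listed in replicate 1.

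Synthetases fall into class I and class II, which differ in the fold of the catalytic domain. Each class had 11 genes with a site, but Rars of class I and Nars2 of class II had none listed in both libraries. At sites listed in both, class I had medians of 0.5 and 0.419 over 36 sites, and class II 0.474 and 0.348 over 37 sites. Without the shared Aars positions the class II medians were 0.429 and 0.401 over 26 sites. Relative to the motif medians the order of the classes was the reverse in both libraries, at -0.0449 and -0.0198 for class I and 0.0313 and 0.025 for class II. On the unadjusted scale the difference between the classes was smaller than the change of either class between the libraries in the full set. No synthetase position was listed in the minus tables.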
